A study of Mus musculus with 55 samples.

Results

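Transcripts of the ligands of the epidermal growth factor (EGF) receptor, and of the receptor itself, were followed in the mouse optic nerve head (ONH) after optic nerve crush. The genes were Ereg (epiregulin), Areg (amphiregulin), Hbegf (heparin-binding EGF-like growth factor), Btc (betacellulin), Tgfa (transforming growth factor alpha) and Egfr. Members were the probe sets of the Affymetrix Mouse Genome 430A 2.0 array whose annotation gives 1 of these 6 genes and no other. Of the 6 genes, 5 had such a probe set, and Areg was not analysed here because the annotation used gives it to no probe set. The 5 genes were read by 13 of the 22626 probe sets on the array, which names 12393 genes in all. Where a gene had several probe sets, the brightest by its mean over the 55 arrays represented it. For these 5 genes the others are given beside it. All other genes named below were read from their brightest probe set alone.

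The mice were C57Bl/6 females, between 6 and 8 weeks of age when operated on. The left optic nerve was crushed for 10 seconds at a point 1 mm behind the eyeball, the unoperated right eye gave the contralateral sample, and naïve mice had no operation. There were 11 conditions with 5 biological replicates apiece, and ONHs of 2 mice were pooled into a replicate, so that the crushed and the contralateral sample of the same mice formed a pair. Samples of a time with the same replicate number were taken as a pair, which the labels do not state. A first batch of 45 arrays held the naïve ONHs and both eyes of the times from 1 day to 3 weeks, and a second batch of 10 held both eyes of the 3-month time. Values are the deposited linear intensities, and changes are differences of log2 intensity, crushed minus contralateral, with the standard error (SE) of the fit. A probe set was called when its adjusted p was under 0.05 and its change at least 2-fold, which is 1 on the log2 scale. In samples of whole tissue, fewer cells of a type and less RNA per cell cannot be told apart.

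Ligands of the EGF family are made as membrane-anchored precursors, and metalloproteases such as ADAM17 and ADAM10 cut them free. The ligand then brings 2 receptor chains together, EGFR with itself or with ERBB2, ERBB3 or ERBB4, and the active kinases signal through RAS and ERK to early genes, some of which shut the pathway down again. Epiregulin, amphiregulin and TGF-alpha bind EGFR, while HB-EGF, betacellulin and epiregulin can also engage ERBB4. In the optic nerve, EGFR is known from astrocytes that respond to injury.

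Of the marker genes with a probe set, 12 of 12 for astrocytes and 8 of 8 for oligodendrocytes passed the filter of the crush model. So did 12 of 12 for photoreceptors, 8 of 8 for fibroblasts and 7 of 7 for pigment cells, so passing it does not identify the tissue. Array medians ran from 459 to 554 in the first batch and from 494 to 598 in the second. Photoreceptor transcripts differed widely between arrays of every condition, and the summed intensity of 12 photoreceptor genes ran from 668 to 128938. These arrays matter for Btc and are taken up there.

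Among the 5 measured genes, Ereg and Btc were called higher in the crushed ONH at 1 day and at 3 days, Ereg, Btc and Egfr at 1 week, and Ereg and Egfr at 3 weeks. None was called lower at any time. At 1 day 7.02% of all probe sets tested were called higher and 7.44% lower, at 3 days 6.6% and 2.2%, at 1 week 6.21% and 3.53%, and at 3 weeks 2.36% and 1.75%. At 3 months 0 of the 4 genes tested was called, where 0.207% of all probe sets were called higher and 0.255% lower, and 2 of the 4 had an unadjusted p under 0.05. Over all probe sets the share with an unadjusted p under 0.05 was 58.6%, 48.1%, 49.3%, 33.9% and 14.1% from 1 day to 3 months, against which the unadjusted counts of genes below are to be read. By the methods' t-test, whose criteria also ask for a lower bound of the fold above 2 and a minimum difference of the means, the calls of Ereg at 1 and 3 days and of Btc at 1 day were made, and those of Ereg and Egfr at 1 week and 3 weeks and of Btc at 3 days and 1 week were not.

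**Figure D1:**
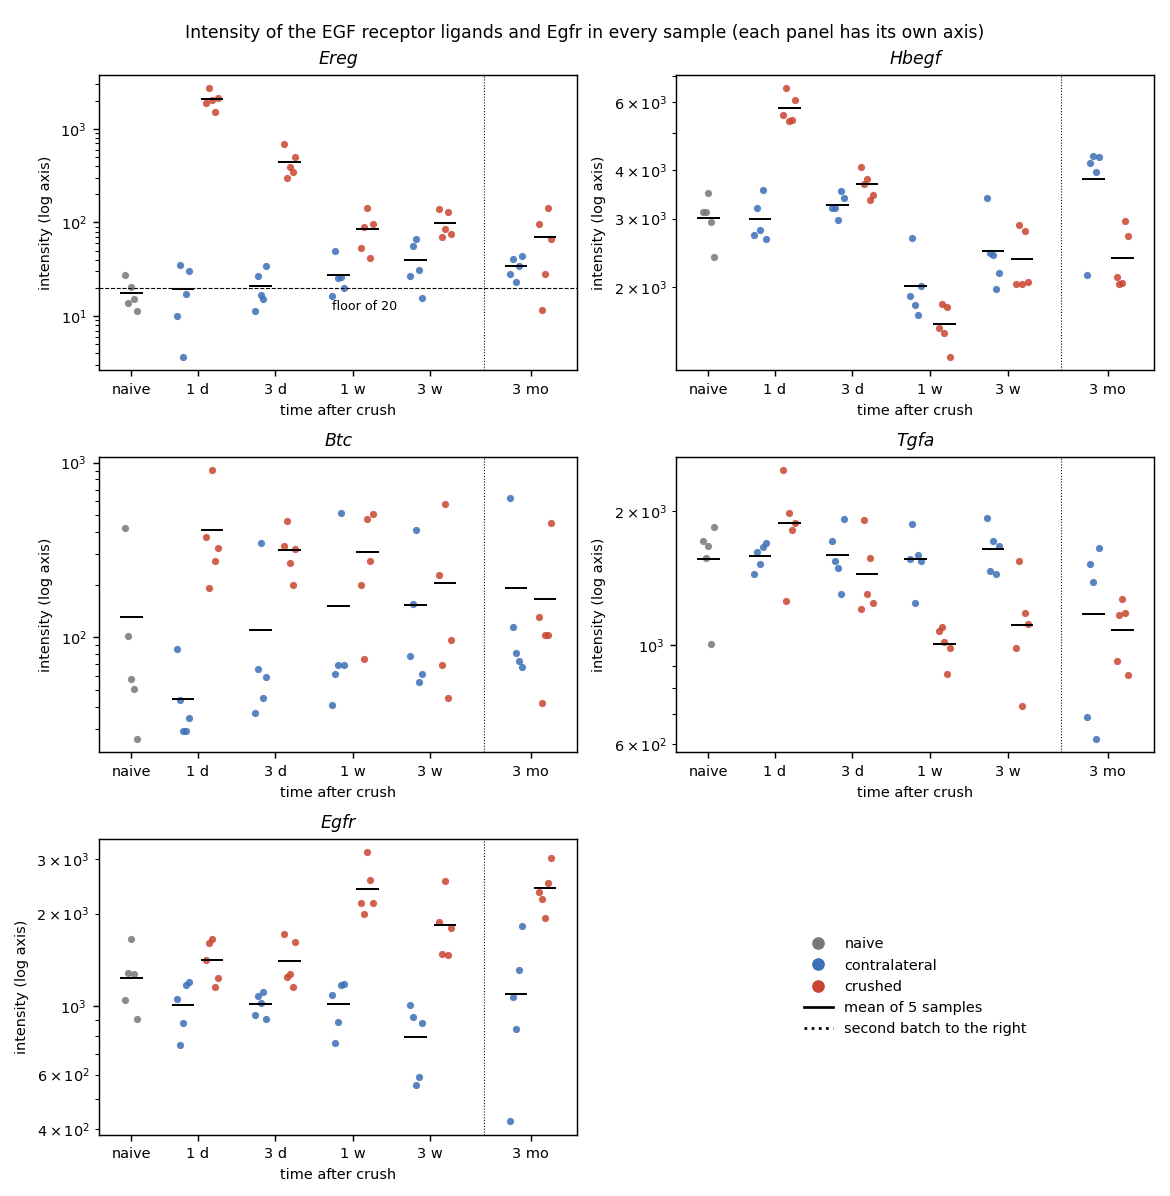
Intensity of the representative probe set of each gene in all 55 arrays, on log axes that differ between panels; points are samples, bars are means of 5, and the dotted line separates the second batch. Ereg rose from at most 34.7 in contralateral ONHs at 1 day to at least 1526 in crushed ones, while Egfr was highest from 1 week on.

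Ereg had the largest change of these genes. In contralateral ONHs at 1 day its intensities were 9.95, 34.7, 3.68, 17.4 and 30.4, and in the crushed ONHs, in the same order of replicate numbers, 1885, 2730, 2016, 1526 and 2128. The crushed samples lay far above all others, with a mean of 2057 ± 439 (SD, n = 5) against 19.2 ± 13.2. The change was 6.38 on the log2 scale (SE 0.30, adjusted p = 3.88e-12), the rise ranked 4 of 19313 probe sets, and the ratio of the mean intensities was 107. Since the contralateral values are close to background, the size depends on the floor of 20 set before the log2 step: it was 5.34 with a floor of 50 and 6.98 with no floor above 1.

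At 3 days the crushed ONHs gave 684, 295, 386, 348 and 504 for Ereg, against 11.4, 26.8, 16.6, 15.3 and 34.0 in the contralateral ones. The groups did not overlap, and the change was 4.17 (SE 0.30, adjusted p = 1.33e-09), rank 50 of 19313. At 1 week the crushed values were 53.3, 90.2, 142, 41.5 and 96.9 and the contralateral ones 16.2, 49.1, 25.6, 26.0 and 20.1. All 5 pairs rose but the ranges overlapped, and the change was 1.54 (SE 0.30, adjusted p = 0.000351). At 3 weeks the crushed values were 138, 69.2, 85.4, 128 and 75.4 and the contralateral ones 26.7, 56.6, 66.9, 30.8 and 15.4. These groups did not overlap, by a narrow margin, and the change was 1.40 (SE 0.30, adjusted p = 0.00212).

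Both late calls of Ereg rest on dim values. With a floor of 50 the change was 0.68 at 1 week (adjusted p = 0.0159) and 0.81 at 3 weeks (adjusted p = 0.0102), under 2-fold at both times. At 3 months Ereg did not pass the filter on dim probe sets. The crushed values there were 96.4, 11.6, 28.2, 142 and 66.8 and the contralateral ones 28.1, 41.1, 23.3, 34.5 and 44.0, so that 3 of the crushed samples lay above and 1 below every contralateral one. Without the filter the difference at 3 months was 0.73 (SE 0.49, adjusted p = 0.517). The naïve ONHs, at 27.3, 13.7, 20.6, 15.3 and 11.3, were in the range of the contralateral ones at 1 day.

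The fall of the Ereg response was itself past the thresholds. Its crush effect was lower at 3 days than at 1 day by a log2 difference of -2.21 (SE 0.43, adjusted p = 0.00144), and lower again at 1 week than at 3 days by -2.63 (SE 0.43, adjusted p = 0.00133). From 1 week to 3 weeks the difference was -0.14, with a 95% interval from -0.98 to 0.69.

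Leukocyte markers were also higher in crushed ONHs. Of the 11 neutrophil genes with a probe set, 5 of 7 tested were called higher at 1 day, and then 4, 4 and 1 at the later times up to 3 weeks. Their summed intensity was 10704 to 21235 in crushed ONHs at 1 day against 807 to 1340 in contralateral ones, then 2314 to 12738 at 3 days, 1860 to 11642 at 1 week and 1314 to 2773 at 3 weeks. The median change of the 7 genes was 3.40, 3.14, 1.14 and 0.57 at these times. Microglia and macrophage genes were called higher for 6 of 13 at 1 day, with 1 lower, and 8 of 13 at 3 days and at 1 week, with summed intensities of 31952 to 47246 at 1 day and 46052 to 67579 at 1 week, and their median change went from 0.46 to 1.21. The part of these cells in the Ereg result was not tested.

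Hbegf, which is known as an early injury-response gene in many tissues, passed the test at 1 day and at none of the later times up to 3 weeks. On the brightest probe set the contralateral intensities at 1 day were 2727, 3192, 2797, 3556 and 2659, and the crushed ones 5556, 6514, 5366, 5390 and 6070. The groups did not overlap, with means of 2986 ± 380 and 5779 ± 499 (SD, n = 5). The change was 0.96 (SE 0.13, adjusted p = 3.28e-06), a ratio of 1.94, and so fell just short of the 2-fold threshold. The other probe set of Hbegf was at 928, 1290, 981, 1498 and 1059 in contralateral and at 4148, 6258, 3492, 4293 and 5299 in crushed ONHs. There the change was 2.02 (SE 0.18, adjusted p = 9.81e-09), and it was called.

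At 3 days the change of Hbegf was 0.17 and 0.10 on the 2 probe sets, at 1 week -0.32 and -0.15, and at 3 weeks -0.07 and 0.23, with no adjusted p under 0.05. Its crush effect at 3 weeks was lower than at 1 day by -1.02 (SE 0.18, adjusted p = 0.000205) on the brightest probe set and by -1.79 (SE 0.25, adjusted p = 1.37e-05) on the other. The first of these was under 2-fold without the pairs of replicate 1, 3 or 5, at -0.84, -0.98 and -0.96. Between 1 and 3 days the differences were -0.78 (adjusted p = 0.00624, under 2-fold) and -1.92 (adjusted p = 3.21e-05).

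**Figure D2:**
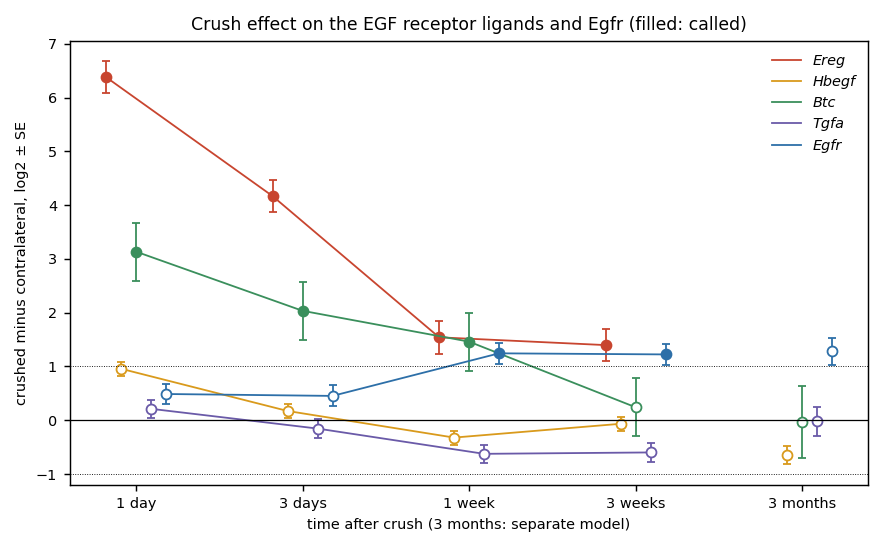
Crushed minus contralateral difference of log2 intensity of the representative probe sets, with SE as bars, over the time after crush; filled points were called and dotted lines mark 2-fold. Ereg fell from 6.38 to 1.40 and Btc from 3.14 to 0.24, while Egfr rose to 1.24 at 1 week.

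Btc was the other ligand called higher. At 1 day the contralateral intensities were 85.8, 43.6, 29.1, 29.0 and 34.6 and the crushed ones 373, 191, 904, 275 and 323. The groups did not overlap, and the change was 3.14 (SE 0.54, adjusted p = 5.55e-05). At 3 days the crushed values were 333, 462, 266, 198 and 322 and the contralateral ones 37.0, 65.7, 347, 45.1 and 59.1. A single high contralateral sample made the groups overlap, and the change was 2.04 (SE 0.54, adjusted p = 0.00497). At 1 week the crushed values were 199.5, 75.1, 478, 274 and 507 and the contralateral ones 41.0, 61.5, 69.3, 516 and 69.8. The change was 1.46 (SE 0.54, adjusted p = 0.0351), with 4 of 5 pairs higher.

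The call at 1 week did not hold without the pair of replicate 1, 3 or 5, where the change was 1.26, 1.13 and 1.11. It was also lost with no replicate block (adjusted p = 0.0731), with no filter on dim probe sets (0.0567) and with 1 week fitted alone (0.0803). At 3 weeks the change was 0.24 (SE 0.54, 95% interval -0.82 to 1.30). The crush effect at 3 weeks was lower than at 1 day by -2.89 (SE 0.77, adjusted p = 0.00554). The dimmer probe set of Btc gave 1.95 at 1 day (SE 0.51, adjusted p = 0.00314, called), 1.28 at 3 days (adjusted p = 0.0526) and 1.01 at 1 week (adjusted p = 0.121). Its difference between 3 weeks and 1 day was -1.77 (adjusted p = 0.0613).

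In the first batch the high contralateral samples of Btc were those rich in photoreceptor transcripts. Over the 25 arrays of naïve or contralateral ONHs in the first batch, Btc and the mean log2 intensity of 12 photoreceptor genes had a Pearson r of 0.91 (permutation p = 2e-05) and a Spearman rho of 0.84 (permutation p = 1e-05, the smallest the 100000 resamples can give). Without the 2 arrays farthest from the median photoreceptor level r was 0.86. Over the 20 crushed arrays r was 0.63 (permutation p = 0.00247) and rho 0.66 (permutation p = 0.00187), and r was 0.58 without the 2 farthest. These permutations shuffled the arrays of all times together, so their p do not separate photoreceptor level from time. Over 10 relations of 5 genes with this level, the adjusted p of r was 0.0002 and 0.0123 for Btc and at least 0.626 for the other 4 genes. At 3 months, in the second batch, contralateral replicate 1 had a level of 13.1 and Btc at 625. Contralateral replicates 2 and 3 had levels of 11.3 and 11.1, but Btc at only 115 and 81.85.

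Several measurements of the photoreceptor level are given beside the Btc result. The median change of the 12 photoreceptor genes was 1.52, 0.95, -0.35 and 0.45 from 1 day to 3 weeks, and 0 of 12 was called or had an unadjusted p under 0.05 in limma at these times. At 1 day the crushed sample had the lower photoreceptor level in 2 of the 5 pairs, and Btc was higher there by 2.12 and 2.13 on the log2 scale. In the other 3 pairs the photoreceptor level was higher in the crushed sample, by 2.66 to 5.57, and Btc by 3.22 to 4.96. Of the pairs with the lower photoreceptor level in the crushed sample, Btc was higher in 1 of 2 at 3 days, 2 of 3 at 1 week and 0 of 1 at 3 weeks, and it was -0.38, -0.91 and -1.16 in the others. With the photoreceptor level as a covariate the change of Btc was 2.67 at 1 day (SE 0.36, adjusted p = 4.09e-06), 1.76 at 3 days (adjusted p = 0.000537), 1.55 at 1 week (adjusted p = 0.0014) and 0.11 at 3 weeks. Without every pair in which 1 array had a photoreceptor level over 11 on the log2 scale, a choice made after seeing the data, 3 or 4 pairs were left at each time and the change was 2.68, 2.58, 1.79 and 0.18. The call was the same at each of these times under both settings. The part of photoreceptor content in the Btc result was not tested.

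**Figure D3:**
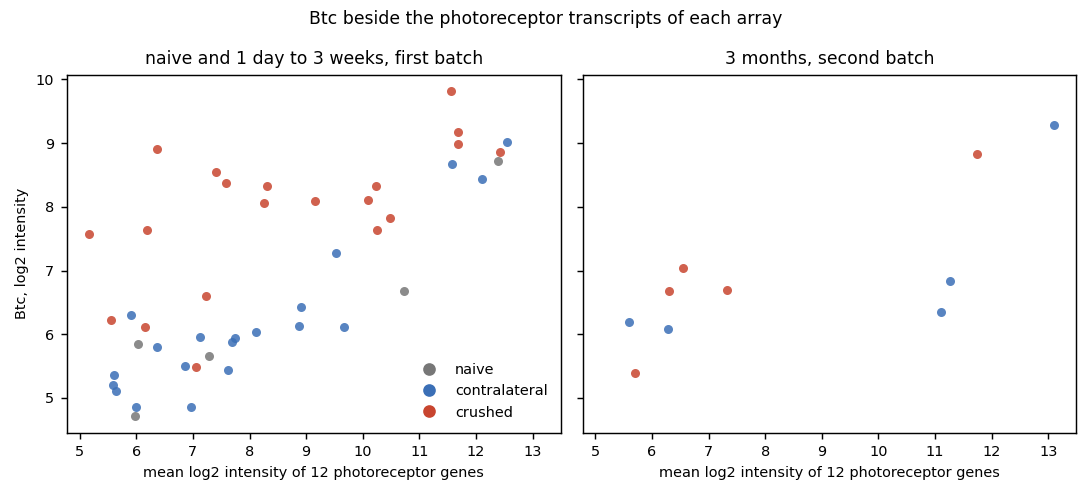
Log2 intensity of Btc against the mean log2 intensity of 12 photoreceptor genes, one point per array, first batch left and second batch right. All naïve and contralateral arrays with Btc above 300 have a photoreceptor level over 11, while crushed arrays above 300 are found from 6.36 on.

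Promoters were read from RefSeq (build GRCm38.p6) for the members that its table holds, which are Areg, Btc, Tgfa and Egfr, as 250 bases before to 50 bases after the start of the gene. Btc and Egfr are shown because, of the members with an entry, these were called higher. Searches on both strands covered the motifs AP-1 (TGANTCA), CRE (TGACGTCA), STAT (TTCNNNGAA), EGR1 (GCGTGGGCG) and NF-kB, with overlaps between motifs allowed. No window of Btc, Tgfa or Egfr held any of the 5 motifs, which says only that these letters are not in it, and no letter is therefore in capitals below. Of 32851 RefSeq promoter windows, 7.81% held the AP-1 motif, 1.79% the CRE, 8.3% the STAT motif, 0.612% the EGR1 motif and 0.155% the NF-kB motif. The Areg window held 1 CRE.
Btc, chr5:91402945-91403244, minus strand: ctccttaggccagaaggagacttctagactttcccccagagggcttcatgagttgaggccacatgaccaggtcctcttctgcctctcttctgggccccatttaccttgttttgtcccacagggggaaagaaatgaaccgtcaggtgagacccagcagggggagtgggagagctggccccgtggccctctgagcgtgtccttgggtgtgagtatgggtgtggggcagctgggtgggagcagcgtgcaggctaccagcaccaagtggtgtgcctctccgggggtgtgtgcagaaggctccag
Egfr, chr11:16751953-16752252, plus strand: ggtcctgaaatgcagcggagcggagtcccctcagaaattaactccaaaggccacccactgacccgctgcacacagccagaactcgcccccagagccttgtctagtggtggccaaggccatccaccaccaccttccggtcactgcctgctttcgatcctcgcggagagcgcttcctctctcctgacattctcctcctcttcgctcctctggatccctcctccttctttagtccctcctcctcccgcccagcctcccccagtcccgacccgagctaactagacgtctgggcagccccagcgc

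Tgfa was never called. Its brightest probe set was at 1559, 1868, 1241, 1591 and 1545 in contralateral ONHs at 1 week and at 1075, 1101, 1018, 859.9 and 986 in crushed ones. The groups did not overlap and the change was -0.62 (SE 0.17, adjusted p = 0.00587), under 2-fold. At 3 weeks the crushed values were 987, 1542, 732, 1182 and 1115 against 1926, 1466, 1715, 1447 and 1668, with 4 of 5 pairs lower and a change of -0.60 (SE 0.17, adjusted p = 0.0155). At 1 day and 3 days the changes were 0.21 and -0.15, with 95% intervals from -0.12 to 0.55 and from -0.49 to 0.18. The other probe sets of Tgfa were dim, with means over all arrays of 88.1 and 31.7, and had an adjusted p of at least 0.0801 in each crush comparison where they were tested. The first of these carries a suffix that the array maker uses for probe sets that may match transcripts of several genes.

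Egfr, the receptor, was called higher at 1 week and 3 weeks. On the brightest probe set the contralateral intensities at 1 week were 1092, 760.5, 887, 1178 and 1178, and the crushed ones 2173, 1996, 3163, 2575 and 2159. Each crushed sample lay above all contralateral ones, with means of 2413 ± 470.5 and 1019 ± 187 (SD, n = 5), and the change was 1.24 (SE 0.19, adjusted p = 3.32e-05). At 3 weeks the crushed values were 1878, 1484, 2552, 1472 and 1799 and the contralateral ones 1014, 927, 555, 589 and 882. The groups did not overlap and the change was 1.22 (SE 0.19, adjusted p = 0.000139). Without the pair of replicate 3 this change was 0.98, under 2-fold. Both samples of that pair were rich in photoreceptor transcripts, with a mean log2 level of 11.6 in the contralateral and 11.7 in the crushed one. With the photoreceptor level as a covariate the change at 3 weeks was 1.23. The part of that level in the change was not tested. At 1 day and 3 days the changes were 0.49 (adjusted p = 0.0394) and 0.45 (adjusted p = 0.0691), both under 2-fold.

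At 3 months the crushed values of Egfr were 2357, 2239, 1929.9, 2510 and 3038 and the contralateral ones 424, 1069, 843, 1309 and 1829. All 5 pairs were higher and the groups did not overlap, but the change of 1.28 (SE 0.25, adjusted p = 0.0894) did not pass the test. With each replicate left out in turn the adjusted p ran from 0.0641 to 0.300. The contralateral sample at 424 had the highest photoreceptor level of all arrays, and without its pair the change was 0.98. With the photoreceptor level as a covariate the change was 1.11, and the part of that level was not tested.

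Of the 5 probe sets of Egfr, 3 were called higher at 1 week and 3 weeks. The brightest of them had a mean of 1422 over all arrays, and the other called ones, 1451530_at and 1432647_at, were dim at 81.4 and 59.2. The second brightest probe set of the gene, 1460420_a_at at 1067, was not called, so the bright probe sets differed. Beside the brightest, the probe set 1451530_at changed by 1.53 at 1 week (adjusted p = 3.82e-06) and 1.19 at 3 weeks (adjusted p = 0.000221), and 1432647_at by 1.13 (adjusted p = 1.01e-05) and 1.19 (adjusted p = 2.77e-05). In both the groups did not overlap at either time. The probe set 1460420_a_at changed by 0.16 at 1 week (95% interval -0.06 to 0.37) and 0.27 at 3 weeks (95% interval 0.06 to 0.48). At 1 day it was lower in all 5 pairs, by -0.29 (adjusted p = 0.0326, under 2-fold). Its suffix marks a probe set that reads more than 1 transcript of a gene. The probe set 1454313_at, with a mean of 34.4 over all arrays, changed by 0.63 at 3 weeks (95% interval 0.16 to 1.11, adjusted p = 0.0676), with 4 of 5 pairs higher, and was not called at any time.

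**Figure D4:**
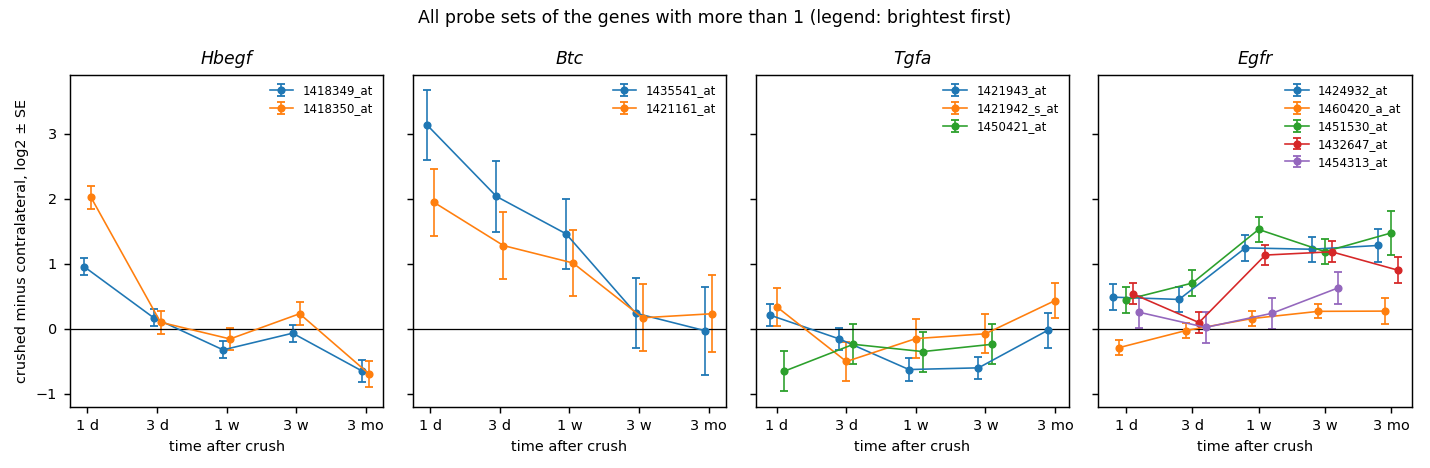
Crushed minus contralateral difference of log2 intensity, with SE as bars, for every probe set of the genes that have more than 1, over the time after crush. Both Hbegf probe sets peak at 1 day, at 0.96 and 2.02, and 3 of the 5 Egfr probe sets are near or above 1 from 1 week on while 1460420_a_at stays under 0.3.

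Markers of several other cells also differed at the times at which Egfr was called, though not all of them at both. The summed intensity of 8 fibroblast genes was 66766 to 80582 in crushed ONHs at 1 week against 55207 to 63149 in contralateral ones, and 52271 to 63247 against 43282 to 53261 at 3 weeks, with 0 of 8 called. That of 10 epithelial genes was 7506 to 10549.8 against 3422 to 5072 at 3 weeks and 3670 to 6047 against 3388 to 6166 at 1 week, with 1 of 6 tested called higher at each time. T and NK cell genes were called higher for 4 of 8 at 1 week and 3 of 8 at 3 weeks, with sums of 1915 to 6659 against 651 to 969 and of 1522 to 2863 against 560.4 to 943. Microglia and macrophage genes were called higher for 8 and 5 of 13. Astrocyte genes had lower sums in crushed ONHs at 1 week, 59542 to 69121 against 77444 to 85816, with 1 of 12 called lower. At 3 weeks their sums overlapped, 57912 to 69666 against 66728 to 76107, with 0 of 12 called. Oligodendrocyte genes were called lower for 6 and 4 of 8 at 1 week and 3 weeks. Axon and ganglion cell genes were called lower for 7 and 8 of 9, with 1 higher at 1 week. The part of these cells in the Egfr result was not tested.

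The crush effects of the genes were also set against each other in time. Lower effects at 3 days than at 1 day were called for 1 gene, Ereg, where 1.03% of all probe sets were called lower. For 1 week against 3 days it was again Ereg, against 2.04% of all probe sets. From 1 week to 3 weeks it was 0 genes, none with an unadjusted p under 0.05, against 3.1%. Between 1 day and 3 weeks the effect was called lower for Ereg, Hbegf and Btc, against 6% of all probe sets. For Ereg that difference was -4.98 (SE 0.43, adjusted p = 7.17e-08). The effect of Egfr went the other way, with 0.74 between 1 day and 3 weeks (SE 0.27, adjusted p = 0.0405) and 0.79 between 3 days and 1 week (adjusted p = 0.072), both under 2-fold. On the probe set 1432647_at the latter was 1.04 (adjusted p = 0.00822) and was called.

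Contralateral ONHs were compared with naïve ones to see how far the other eye is a baseline. Of the 4 genes tested, 0 was called at any of the 4 times, where in order of time 0%, 0%, 0.112% and 0.691% of all probe sets were called, and the number with an unadjusted p under 0.05 was 0, 0, 1 and 2. Over all probe sets that share was 6.79%, 5.55%, 14.4% and 27.7%. Ereg did not pass the filter on dim probe sets here. Without the filter its limma difference from naïve ONHs was 0.18, 0.14, 0.31 and 0.76 in order of time. At 3 weeks the unadjusted p was 0.0171 and the adjusted p 0.102, on dim values. Hbegf was lower in contralateral ONHs at 1 week, at 1896, 2678, 1799, 1693 and 2011 against 3118, 3124, 3493, 2934 and 2395 in naïve ones. The difference was -0.59 (SE 0.13, adjusted p = 0.0313), and on the other probe set -0.94 (SE 0.14, adjusted p = 0.00177), both under 2-fold. Crushed ONHs at 1 week, at 1572, 1810, 1521, 1780 and 1322, were lower still, so that Hbegf was below the naïve range in all 5. Egfr was lower in contralateral ONHs at 3 weeks by -0.65 (SE 0.18, adjusted p = 0.0242) on the brightest probe set, but by -0.00 to 0.21 on 3 others. Against the naïve mean of 1233 ± 284 the crushed ONHs at 3 weeks had a mean Egfr intensity of 1837 ± 439 (SD, n = 5).

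At 3 months Hbegf was lower in crushed ONHs in 5 of 5 pairs, at 2117, 2029, 2046, 2951 and 2711 against 2147, 4162, 4344, 3957 and 4332. The first contralateral sample, the one with the highest photoreceptor level, lay far below the other 4 and made the groups overlap. The part of the photoreceptor level in its low Hbegf value was not tested. The difference was -0.65 (SE 0.17, adjusted p = 0.173), and -0.69 on the other probe set (adjusted p = 0.207). Btc differed by -0.03 (SE 0.67) and Tgfa by -0.02 (SE 0.27).

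Within the first batch the 9 conditions of each gene were ordered by mean log2 intensity, and neighbours were compared by an exact two-sided permutation test. For Ereg the order was crushed at 1 day, 3 days, 3 weeks and 1 week, then contralateral at 3 weeks, 1 week, 1 day and 3 days, then naïve. For Hbegf crushed at 1 day and 3 days came first and contralateral and crushed at 1 week last. The 4 highest conditions of Btc were the crushed ones in order of time, and the lowest was contralateral at 1 day. Crushed at 1 week and 3 weeks were the lowest conditions of Tgfa and the highest of Egfr. Over 40 neighbours none passed after adjustment. The lowest exact p was 0.00794, the smallest that 5 samples against 5 can give, with an adjusted p of 0.106. It was reached between crushed at 1 day and 3 days for Ereg and Hbegf and between crushed at 3 days and 3 weeks for Ereg, where the ranges did not overlap. Several more neighbours would have had to reach that lowest p for any to pass. The lack of a pass thus does not show that neighbours were alike. The contrast of crush terms, a different test, called the fall of the Ereg crush effect from 1 day to 3 days.

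The genes whose log2 intensities over the 45 arrays of the first batch were most like each member, out of 10762, are given as a description, with no test. For Ereg they were Calcb (r = 0.94), Inhba (0.94), which encodes a subunit of activin, and Ltb4r1 (0.93), a receptor of leukotriene B4. For Hbegf they were Pvr (0.91), Slc39a14 (0.91), a zinc and iron transporter, and Maff (0.90), a small Maf factor. For Btc they were Impdh1 (0.85), an enzyme of guanine nucleotide synthesis, Slco5a1 (0.84) and Gucd1 (0.84). For Tgfa they were Arap2 (0.91), Apln (0.80), the peptide apelin, and Cryab (0.80), a small heat shock protein. For Egfr they were Antxr2 (0.85), Niban1 (0.85) and Mical2 (0.84). All of these values share the arrays and their crush, and Btc those of photoreceptor content.

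The other genes of the pathway were counted in lists. Of 3 other ligands tested from 1 day to 3 weeks (Egf, Nrg3 and Nrg4), 0 was called at any time, and 1, 0, 1 and 0 had an unadjusted p under 0.05. Epgn, which codes for epigen and neighbours Ereg on chromosome 5, stayed between 3.38 and 28.1 in every array of the first batch and was not tested there. The medians of the list were -0.20, 0.12, 0.33 and 0.08, beside -0.03, 0.04, 0.02 and -0.00 over all probe sets.

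Of the partner receptors, Erbb3 was called lower at 1 day and at 3 weeks. Its mean intensity was 731 ± 301 in crushed and 1506 ± 298 in contralateral ONHs at 1 day (SD, n = 5), a change of -1.13 (SE 0.23, adjusted p = 0.000248). At 3 weeks the means were 590 ± 156 and 1189 ± 178, and the change -1.04 (SE 0.23, adjusted p = 0.00226). At 3 days and 1 week its changes were -0.25 and -0.01. ERBB3 is best known from oligodendrocytes and Schwann cells, and oligodendrocyte markers were called lower for 5, 2, 6 and 4 of 8 genes from 1 day to 3 weeks; their part in this was not tested. Erbb2 changed by -0.06, 0.02, 0.37 and 0.56, with an adjusted p of 0.0310 at 3 weeks and no call. Erbb4 did not pass the filter, and its highest condition mean in the first batch was 36.0.

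Among 10 genes that cut or traffic the ligands, 1 was called higher at each time from 1 day to 3 weeks and 0 at 3 months, with 1 of the latter having an unadjusted p under 0.05 in each direction. The gene was Adam12 at every time, a metalloprotease that can release HB-EGF. Its mean intensity in crushed ONHs was 831 ± 151, 1471 ± 329, 1984 ± 441 and 450 ± 117 in order of time (SD, n = 5), against 190 to 264 in the contralateral means. Its changes were 2.15, 2.64, 2.90 and 1.25 (SE 0.22 each, adjusted p from 5.18e-09 to 0.000365). Adam17, the main sheddase of Ereg, Areg, Hbegf and Tgfa, changed by 0.99 at 1 week (SE 0.07, adjusted p = 1.62e-09) and 0.59 at 3 days (adjusted p = 9.09e-07), both under 2-fold. Adam10, which releases Btc, changed by at most 0.26. The list medians were 0.06, 0.33, 0.19 and 0.15.

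Of 13 inhibitors and turnover factors of the receptor, 2 were called higher at 1 day, 1 at 3 days and 0 later. Socs3, a suppressor of cytokine signalling that can also bind EGFR, had a mean of 3063 ± 256 in crushed and 685 ± 44.6 in contralateral ONHs at 1 day (SD, n = 5), and changed by 2.16 (SE 0.20, adjusted p = 2.19e-08) and by 1.24 at 3 days (adjusted p = 4.86e-05). Eps8, a substrate of the EGFR kinase, changed by 1.06 at 1 day (adjusted p = 2.75e-07). Of 17 adaptors and ERK cascade genes 0 was called at any time, and at 1 day 4 had a higher and 9 a lower level at an unadjusted p under 0.05, where 27.9% and 30.7% of all probe sets did. The list medians from 1 day to 3 weeks were -0.20, 0.01, 0.08 and 0.04.

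Transcriptional targets and feedback genes of ERK were called higher for 6 of 16 at 1 day, 4 at 3 days, 2 at 1 week, 1 at 3 weeks and 0 of 14 at 3 months, and none lower. The list medians were 0.60, 0.43, 0.23, 0.18 and -0.01. Fosl1, an AP-1 subunit, was at 1353 to 3509 in crushed ONHs at 1 day against 24.8 to 32.4 in contralateral ones, a change of 6.16 (SE 0.25, adjusted p = 4.83e-13). It was at 129.9 to 419.8 at 3 days and at 9.56 to 23.8 at 1 week, where contralateral ONHs gave 14.7 to 29.1. Plaur, the urokinase receptor, changed by 3.49, 2.96 and 1.75 at 1 day, 3 days and 1 week, and Myc by 3.44, 1.82 and 1.99. Etv4, an ETS factor, changed by 1.12, 1.32 and 1.24 at 1 day, 3 days and 3 weeks (adjusted p = 0.0174, 0.0092 and 0.0237). Ier3 and Spry4, a feedback inhibitor of the pathway, changed by 1.13 and 1.14 at 1 day. These genes also answer to other signals than EGFR.

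**Figure D5:**
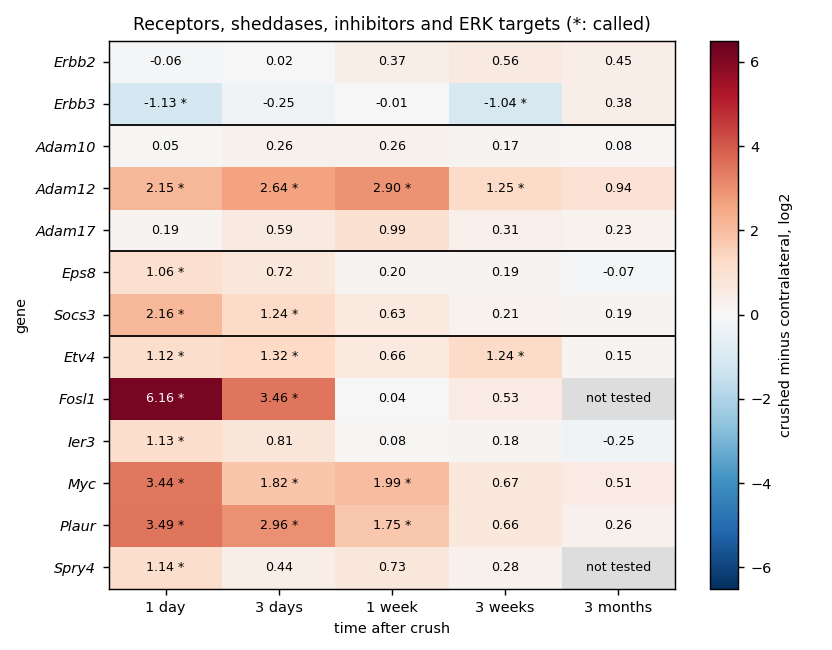
Crushed minus contralateral difference of log2 intensity of receptors, sheddases, inhibitors and ERK targets, by time after crush; red is higher and blue lower in crushed ONHs, a star marks a called gene and grey cells were not tested. Fosl1 at 6.16, Plaur at 3.49 and Myc at 3.44 were highest at 1 day, and Adam12 peaked at 2.90 at 1 week.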

How the data were processed

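RNA from 55 pooled ONH samples was amplified, labelled and hybridized to 1 array each by the authors. The deposited values are linear intensities, 1 for each probe set and array, made by the authors with the DChip software, whose invariant set method scaled the arrays and whose model subtracted mismatch from perfect match probes. The number of arrays and signal over background limit the precision. The genome build of the array design was not given in the sources used here.

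The 64 control rows were left out, and no array was normalized again. Values were set to at least 20 and log2 transformed, which touched 9.90% of them, and probe sets under 50 in all but 4 or fewer arrays of a model were not tested. Crushed and contralateral samples of 1 day to 3 weeks (40 arrays) entered 1 limma 3.58.1 model (lmFit, eBayes with an intensity trend, R 4.3.3) with a block for the pair and, at each time, a term for crush. The samples of 3 months (10 arrays) and the naïve comparison (25 arrays, unpaired) were fitted separately, and the batches were not compared with each other. Adjusted p are Benjamini-Hochberg values over all probe sets of a comparison. Probe sets were named from the platform annotation: 20380 carry 1 symbol, 691 several and 1555 none listed.

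Pairs come from the same mice by the series' design, and that equal replicate numbers mark them was assumed. As a check, deviations from the group means of same-numbered samples correlated above 0.1 in 8 of 25 pairs, from -0.45 to 0.52 with a median of -0.04, so the arrays themselves do not show the pairing. On simulated data for 1 day, 97% of 100 changes of 1.5 on the log2 scale and 100% of those of 3 were recovered, with 1 false call among 19313 probe sets. The simulated noise was normal and independent, with no pair effects and no shared photoreceptor content. Changes were put only into probe sets above a mean level that Ereg does not reach. The rates therefore need not hold for Ereg or Btc.

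Members, lists and tests were chosen with earlier results of these data known. Genes of a list are named if called, at most 4 by size. Adam10, Adam17, Epgn, Ier3 and Spry4 were named after their values were seen. Alternatives were quantile or median scaling, floors, filters, no block, each replicate left out, a photoreceptor covariate, each time alone, no trend, the methods' t-test and other probe sets. Figures were drawn with matplotlib 3.10.9 in Python 3.11.15. Promoter sequences for Ereg and Hbegf and protein sequences were not used here.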

Additional observations from a re-analysis of the deposited data

Results flagged for a closer look

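In 55 sets of 5 samples (5 genes in 11 conditions), 6 had 1 sample far from the other 4 by Dixon's ratio of the gap to the range at the 95% level, and chance alone marks about 1 set in 20. The ratio was 0.904 for Ereg in naïve replicate 1, where 3 of the other values lay under the floor of 20. For Btc it was 0.744 for contralateral replicate 3 at 3 days, 0.790 for contralateral replicate 4 at 1 week and 0.765 for contralateral replicate 1 at 3 months, each the highest of its set. These samples had photoreceptor levels of 12.1, 12.5 and 13.1 on the log2 scale. For Hbegf the ratio was 0.868 for contralateral replicate 1 at 3 months and for Tgfa 0.731 for naïve replicate 4, each the lowest of its set.

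The crush effect differed between times by the contrast of crush terms for 3 genes, in log2 units: Ereg between 3 days and 1 day (-2.21), 1 week and 3 days (-2.63) and 3 weeks and 1 day (-4.98), Hbegf between 3 weeks and 1 day (-1.02) and Btc between 3 weeks and 1 day (-2.89).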

How the results depend on the processing

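From 1 day to 3 weeks 9 member calls were made, all higher, and the count was 7 to 10 with each replicate left out, 8 with no replicate block and 7 to 10 under the other settings of the limma fit. The methods' t-test with the study's criteria gave 3, and 2 after Benjamini-Hochberg: Ereg at 1 day and 3 days and, without the correction, Btc at 1 day. Neither call of Egfr was made by that test. Without the correction its p was 0.00383 at 1 week and 0.0134 at 3 weeks, and the criterion missed was the lower bound of the fold. For Ereg p was 0.0316 at 1 week and 0.0401 at 3 weeks. Its means there, 84.7 against 27.4 and 99.3 against 39.3, fell short of the minimum difference. For Btc p was 0.0655 at 3 days and 0.288 at 1 week. With the second brightest probe set in place of the first the count was 6, of which 4 are Ereg, which has a single probe set, and the others Hbegf and Btc at 1 day. The 5 calls between times were 4 to 7 with each replicate left out, and 5 with no replicate block. At 3 months and against naïve ONHs the count was 0 under every setting.

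Of 979 values of single members under alternative settings none turned a called direction, 27 lost and 4 gained a call, and 43 changes that were never called had the other sign. Most of these values belong to comparisons not called in the main fit, which had no call to lose. Btc at 1 week was called in 10 of 18 settings and Egfr at 3 weeks in 14 of 18. The block cost or gained 1 call: Btc at 1 week had an adjusted p of 0.0731 without it. Fold changes of Ereg are limited by background in control ONHs.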
